A study of Mus musculus with 47 samples.

Results

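Wild-type olfactory epithelium 3 days after birth (P3) was compared with the same tissue on the day of birth (P0), across all genes. The comparison used 7 of the 47 libraries of the series: 4 at P0 and 3 at P3, chosen by title, stage and strain label. All 7 carried the strain label C57BL/6J, with no transgene, agent or treatment named, and all had the title prefix cry4. The tissue was dissected, RNA was taken up in TRIzol, and polyadenylated RNA was sequenced with an Illumina mRNA kit. Nothing in the labels ties a library to 1 animal, so p-values measure the spread between libraries, which may be technical. For the same ages in the other genotype, 4 and 3 libraries with the strain label OIVT;Kir2.1 were used. Kcnj2 encodes Kir2.1, a potassium channel that holds cells near rest, and the labels do not name what drives its expression in these mice.

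The olfactory epithelium is renewed throughout life. Basal stem cells give rise to dividing progenitors, which become immature and then mature sensory neurons, each choosing a single odorant receptor. Sustentacular cells surround the neurons and carry enzymes that break down odorants and toxins, and Bowman's glands beneath the epithelium secrete its mucus. At birth the animal passes from the womb to breathing air, which carries odors to the tissue.

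Gene counts ran from 9684661 to 14035364 per library. The sampled tissue held more than epithelium, and 4 libraries stood apart. Summed over the 15 tested genes of brain neurons, P0 replicate 1 reached 1594 CPM (counts scaled to the normalized library size), against 301 to 394 CPM in the other 6 libraries. Keratinized epithelium genes summed to 1047 CPM in P0 replicate 3 and 285 CPM in P0 replicate 4, against 24.2 to 47.4 CPM elsewhere. Cartilage genes summed to 12737 CPM in P0 replicate 4 and to 328 to 3121 CPM in the others. In P3 replicate 1 the secretory gene Bpifb9b stood at 6.14 CPM, against 9248 to 26787 CPM in the other 6 libraries. P0 replicate 3 was titled P0 but had P3 as its stage label. It was kept at P0, since the series design lists 4 wild-type samples at P0 and 3 at P3. Of the 3178 genes called without it, it lay nearer to the other P0 libraries than to the P3 libraries for 82.1%, and the same share was 61.5% to 73.6% when each other P0 library was held out. Y-linked genes had counts in 3 libraries (P0 replicates 3 and 4 and P3 replicate 2), and Xist was high in the other 4.

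Of 19927 genes tested, 4077 changed between P0 and P3 (20.5%, edgeR quasi-likelihood test, adjusted p below 0.05). At P3, 1715 were higher (8.61%) and 2362 lower (11.9%), and 441 of the former (2.21%) and 1110 of the latter (5.57%) changed at least 2-fold, 7.78% in all. The median log2 fold change over all genes was -0.04. For 4896 genes (24.6%) the P3 libraries lay all above or all below the range of the P0 libraries. The split between rises and falls depended on the scaling: rises numbered 2062 and falls 1996 under upper-quartile scaling, 1979 and 1989 with a filter of 1 CPM, and 1816 and 1382 on log2(TPM + 1). The count was 1279 (6.42%) when the spread came from these 7 libraries alone, 2101 without P3 replicate 1, and 1698 (8.52%) without P0 replicates 1 and 3. With P0 replicate 3 moved to P3 it was 919 (1.64% higher and 2.98% lower). The shares of all genes called higher and lower were 8.35% and 12.5% without P0 replicate 2, 6.44% and 9.50% without P0 replicate 3, 9.52% and 12.0% without P0 replicate 4, 6.55% and 8.51% without P3 replicate 2, and 7.04% and 10% without P3 replicate 3.

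**Figure D1:**
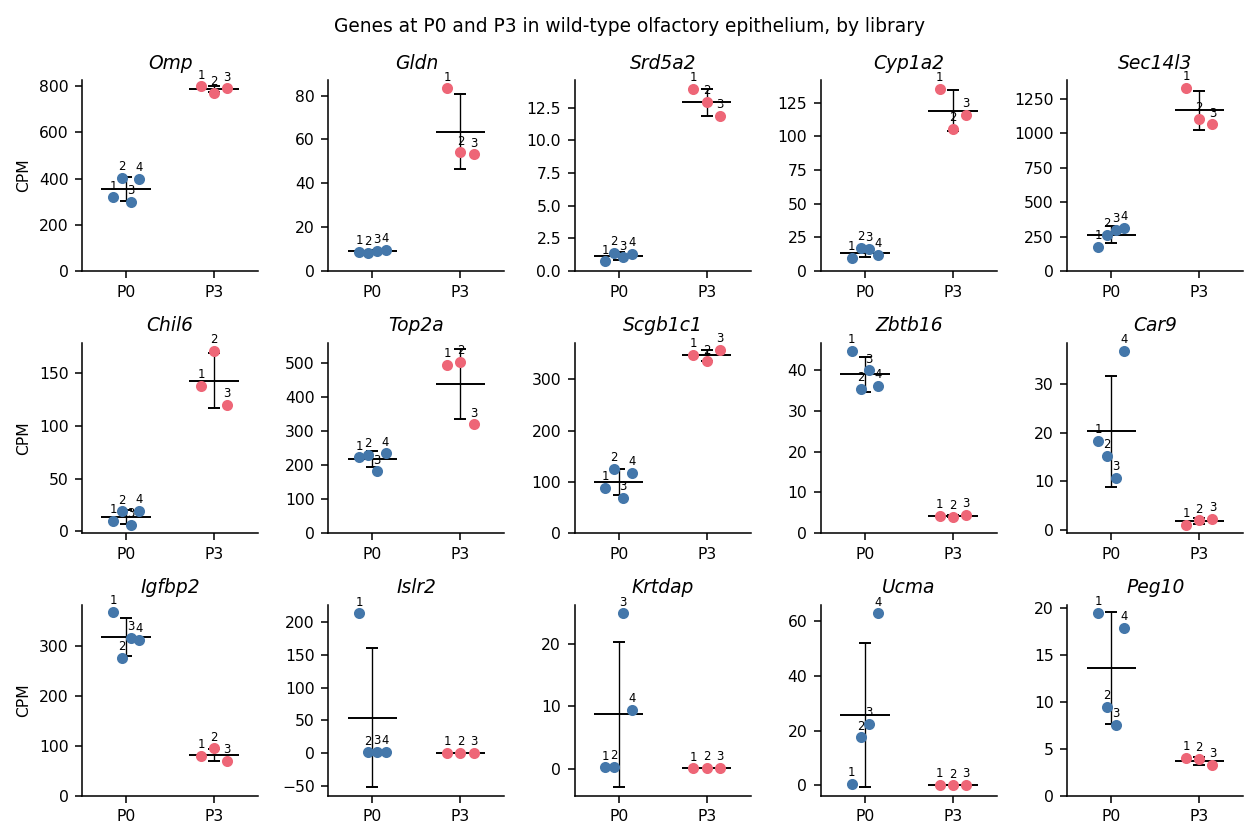
Levels in CPM (y axis, linear) of 15 genes in the 4 P0 and 3 P3 libraries, with points numbered by replicate. Horizontal lines are group means and bars are SD. Omp, Gldn and Sec14l3 show 2 separate groups, whereas the P0 mean of Islr2 rests on replicate 1 and that of Krtdap on replicates 3 and 4.

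Genes of mature sensory neurons were higher at P3. Omp, the olfactory marker protein that defines these cells, stood at 319, 402, 299.8 and 398 CPM at P0 and 799, 772 and 790.2 CPM at P3. All 3 P3 libraries lay above all 4 P0 libraries, with a log2 fold change of 1.15 ± 0.18 (SE; edgeR adjusted p = 2.08e-05). In bulk tissue, more cells of a type and more RNA per cell cannot be told apart. At later ages Omp was higher still, at 2067 ± 178 CPM at P14 and 2433 ± 155 CPM at P21 (SD, n = 3 each). Of 26 genes of mature sensory neurons, 18 were higher (69.2%, against 8.61% of all genes), 0 lower and 8 not called. The median log2 fold change was 0.73. With these 7 libraries alone 15 rose (of all genes, 3.04% rose in that fit), and without P0 replicates 1 and 3 it was 11 (3.40%). With P0 replicate 3 at P3, 4 rose (1.64% of all genes rose in that fit).

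S100a5, a calcium-binding protein of these neurons, read 53.5, 108, 98.2 and 76.6 CPM at P0 and 301, 245 and 265 CPM at P3. Umodl1, a surface protein of the same cells, read 239.6, 308, 219.9 and 315 CPM at P0 and 608, 515 and 647 CPM at P3. Ano2, the chloride channel that amplifies the odor response, read 71.9, 92.2, 61.8 and 105 CPM at P0 and 186, 153 and 153 CPM at P3, a log2 fold change of 0.99 ± 0.17. None of the 3 genes had a P3 library within its P0 range.

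The EBF motif, bound by the Olf/EBF factors first described at olfactory neuron genes, was looked for in the promoters of this list. Here a promoter is the 300 bases from 250 before to 50 after a RefSeq start (GRCm38.p6), and each gene was counted once if any of its promoters matched. The letters were CCCNNGGG, which read the same on both strands. They occurred in 11 of the 19 members with a promoter in the table (57.9%), 6 of the 13 called ones among them, and in 15.4% of all 27025 genes. This and the other motif searches were chosen after expression values were seen, and a match is a description of the letters, not of binding. The Ano2 promoter shown (chr6:125710938-125711237, plus strand) was picked because the gene rose and this promoter carries the motif. It lies inside the gene, whose GENCODE start is chr6:125690419. For this and the other genes shown, a RefSeq promoter that holds the motif was taken. The motif is in capitals:
Ano2: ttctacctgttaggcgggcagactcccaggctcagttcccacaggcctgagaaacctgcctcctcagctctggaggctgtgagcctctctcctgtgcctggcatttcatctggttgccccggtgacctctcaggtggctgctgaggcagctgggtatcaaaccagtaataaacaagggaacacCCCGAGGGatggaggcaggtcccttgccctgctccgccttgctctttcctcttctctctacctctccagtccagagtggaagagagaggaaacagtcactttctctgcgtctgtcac

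Few genes of immature sensory neurons were called. Of 23, 3 were higher (13.0%, against 8.61% of all genes) and 1 lower (4.35%, against 11.9%), with a median log2 fold change of 0.23. Without P0 replicate 1, 6 were higher and 0 lower, with a median of 0.36. Gng8, a G-protein subunit of immature neurons, read 34.3, 49.1, 34.3 and 49.8 CPM at P0 and 64.97, 66.4 and 68.8 CPM at P3. Hdac9, a histone deacetylase, read 24.3, 15.1, 13.99 and 23.9 CPM at P0 and 37.1, 33.2 and 33.2 CPM at P3, and all its P3 libraries were above its P0 libraries. Tubb3, the neuronal tubulin, read 739, 459, 339 and 405 CPM at P0 and 679, 789 and 687 CPM at P3, where P0 replicate 1 lay within the P3 range. Its call was lost without any one of P0 replicates 2, 3 and 4 or of the 3 P3 libraries, at log2 fold changes of 0.43 to 0.60. Cd24a, a surface protein, was the member that fell, at 515, 489, 716 and 526 CPM at P0 and 143, 344 and 382 CPM at P3, and its call was lost without any one of P0 replicates 1, 3 and 4 or P3 replicates 1 and 2, at log2 fold changes of -1.09 to -0.63.

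Odorant receptor genes, through which each neuron detects its odors, took 0.156, 0.228, 0.149 and 0.214% of gene counts at P0 and 0.304, 0.230 and 0.295% at P3. Every P3 library was above every P0 library, though P3 replicate 2 was level with P0 replicate 2. The difference of 0.0899 percentage points had an exact permutation p of 0.0571 (two-sided), the smallest that 4 against 3 libraries allows. As a share of summed TPM the exact permutation p was 0.114. Among 997 receptor genes tested, 160 were higher (8.61% of all genes rose) and 1 lower (11.9% fell). The median log2 fold change was 0.50, with 866 values above 0. With these 7 libraries alone 47 rose (3.04% of all genes rose in that fit) and none fell. Without P0 replicate 1 the count was 99 (7.06% of all genes rose in that fit), and without P3 replicate 1 it was 74 (4.97%). It was 94 without P0 replicate 3 and 91 without P3 replicate 3. Without P0 replicates 1 and 3 it was 35 of 997, near the share of all genes that rose in that fit (3.40%). The excess of receptors called higher was thus not kept there. In that fit 1 receptor was lower (5.12% of all genes), and the list's median log2 fold change was 0.29.

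The receptor genes that rose and are named next had the smallest p-values, so their separation is no test of the family. Of 997 receptor genes, 248 had all P3 libraries on the same side of the P0 range, near the share of all genes (24.6%). Olfr536 read 20.96, 23.95, 18.2 and 30.4 CPM at P0 and 56.1, 44.02 and 50.2 CPM at P3. Olfr1507, the first gene downstream of the H element enhancer, read 10.7, 12.4, 4.803 and 8.86 CPM at P0 and 31.1, 30.8 and 25.2 CPM at P3. Olfr1348 and its chromosome 7 neighbour Olfr1346 rose by log2 fold changes of 1.45 ± 0.21 and 1.52 ± 0.23. Olfr920 was the 1 receptor called lower, at 3.997, 2.73, 2.72 and 1.56 CPM at P0 and 1.15, 0.882 and 1.12 CPM at P3. Reads that fit several receptor copies equally well were not counted, so these values rest on uniquely placed reads. Among 11 tested trace amine receptors (of 14), which detect volatile amines, Taar7b and Taar7d were higher (18.2%, against 8.61% of all genes) and none lower. Both had a P3 library within the P0 range, Taar7b was not called without P3 replicate 3 (log2 fold change 1.41), and Taar7d was not called without any one of 5 libraries, at 0.60 to 0.68 (all but P0 replicate 4 and P3 replicate 3).

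Genes of dividing cells were higher at P3. Of 36 cell cycle genes, 34 were higher at P3 (94.4%, against 8.61% of all genes), 0 lower, and Ccnb1 and Ccne1 were not called. The median log2 fold change was 0.79, and for 35 of them all P3 libraries lay on the same side of the P0 range (24.6% of all genes). The count called higher was 29 in these 7 libraries alone (3.04% of all genes) and 29 without P0 replicates 1 and 3 (3.40%). With P0 replicate 3 at P3 it was 15 (1.64%). Top2a, the topoisomerase of dividing cells, read 223, 231, 182 and 234 CPM at P0 and 493, 501 and 319 CPM at P3, a log2 fold change of 1.01 ± 0.15 (edgeR adjusted p = 1.13e-05). Mcm2, a subunit of the replicative helicase, read 58.7, 44.8, 47.8 and 72.7 CPM at P0 and 104, 120.2 and 109.6 CPM at P3. Bub1b of the spindle checkpoint read 46.3, 50.5, 43.1 and 40.6 CPM at P0 and 89.2, 101 and 64.2 CPM at P3, and Kif20a, a motor of cytokinesis, read 26.02, 33.3, 31.01 and 27.98 CPM at P0 and 51.6, 61.4 and 45.5 CPM at P3. P3 replicate 3 was the lowest P3 library for Top2a, Bub1b and Kif20a, and still above every P0 library.

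The rise was not kept at P14 and P21, and ages between P3 and P14 were not compared. Top2a stood at 162 ± 17.1 CPM at P14 and 112 ± 6.92 CPM at P21 (SD, n = 3 each), both means under each of its P0 values. The cell cycle list had a mean log2(CPM + 1) of 5.04 ± 0.11 at P0 (SD, n = 4), 5.80 ± 0.14 at P3 (n = 3), 4.46 ± 0.15 at P14 and 4.00 ± 0.07 at P21 (n = 3 each). Mature neuron genes were higher at each of these ages than at the one before, at 6.85 ± 0.16, 7.58 ± 0.11, 8.64 ± 0.0024 and 8.77 ± 0.08.

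**Figure D2:**
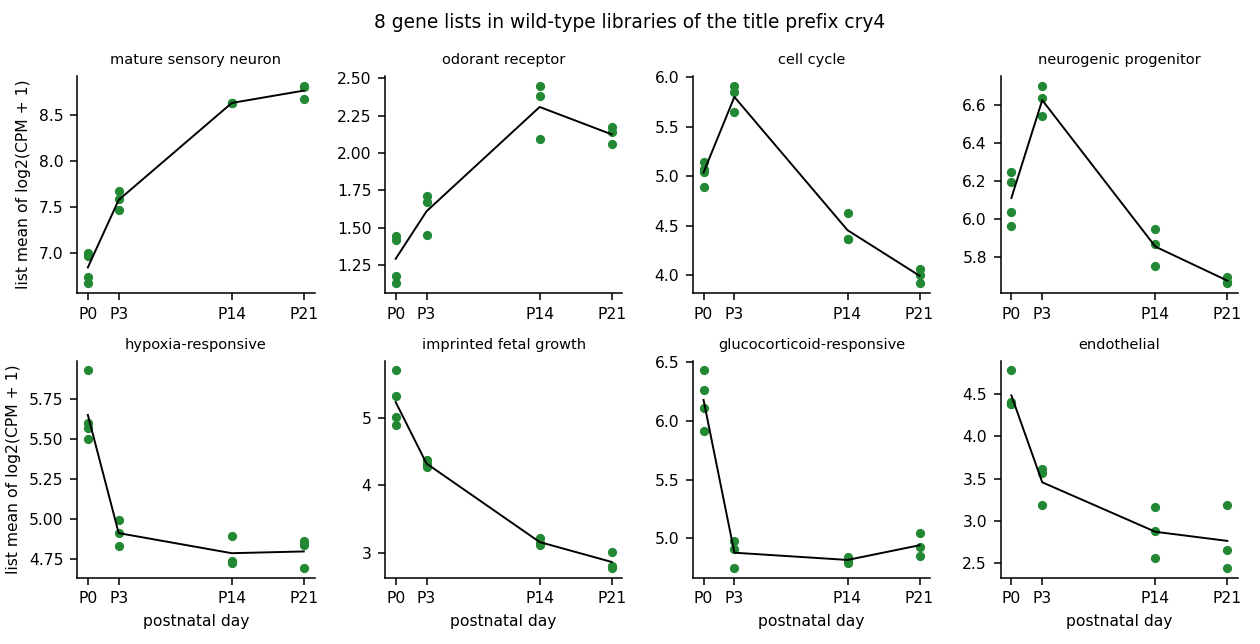
Mean log2(CPM + 1) over each of 8 gene lists (y axis) in every wild-type library at P0, P3, P14 and P21 (x axis, days), all of title prefix cry4. Points are libraries and lines join group means. Among the ages shown, the cell cycle and progenitor lists were highest at P3, and mature neuron genes were higher at each age than at the one before. The glucocorticoid and hypoxia lists stayed near their P3 level at P14 and P21. Ages between P3 and P14 are not shown.

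The CHR, a short element in the promoters of genes used in G2 and M phase, was searched as TTTGAA on both strands (TTCAAA on the other). It occurred in 14 of the 30 cell cycle genes with a promoter in the table (46.7%) and in 20.2% of all genes. All 14 were called higher, but so were 28 of the 30, so these calls cannot tie the motif to the rise. The promoter of Top2a (chr11:99024140-99024439, minus strand) is shown because it holds a match on each strand, in capitals:
Top2a: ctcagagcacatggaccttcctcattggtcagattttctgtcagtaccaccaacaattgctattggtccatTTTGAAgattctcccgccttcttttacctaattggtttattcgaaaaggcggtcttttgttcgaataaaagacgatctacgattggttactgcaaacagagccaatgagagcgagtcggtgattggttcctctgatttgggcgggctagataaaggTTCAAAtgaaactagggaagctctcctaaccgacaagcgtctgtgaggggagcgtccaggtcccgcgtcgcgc

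Neurogenic progenitor genes were higher as well. Of 17 tested (of 18), 9 were higher (52.9%, against 8.61% of all genes) and 1 lower (5.88%, against 11.9%). The median log2 fold change was 0.65. In these 7 libraries alone, 9 were higher and none lower. Mybl1, a transcription factor of dividing progenitors, read 31.6, 34.2, 28.2 and 25.6 CPM at P0 and 81.9, 72.2 and 67.2 CPM at P3, a log2 fold change of 1.30 ± 0.19. Ezh2, the Polycomb methyltransferase, and Elavl4, a neuronal RNA-binding protein, rose by log2 fold changes of 0.78 ± 0.12 and 0.88 ± 0.16. Lgr5 was the member that fell, at 31.1, 28, 21.6 and 18.1 CPM at P0 and 16.4, 15 and 16.4 CPM at P3, and it was chosen after its values were seen. Sox2 had a log2 fold change of 0.16 and was not called.

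Of 14 genes of horizontal basal cells, the reserve stem cells, 4 were lower (28.6%, against 11.9% of all genes) and 0 higher. The median log2 fold change was -0.64. Icam1, an adhesion molecule of these cells, read 8.56, 8.63, 13.4 and 9.298 CPM at P0 and 2.303, 4.15 and 3.09 CPM at P3. Perp, a desmosome protein, read 149, 163, 307 and 168 CPM at P0 and 48.1, 86.4 and 91.3 CPM at P3. The integrins Itga6 and Itgb4 fell by 0.68 and 0.69 on the log2 scale. P0 replicate 3 was the highest library for all 4 and also held the keratinized epithelium genes, and the part of these in the result was not tested. Without it 3 were lower and the list's median was -0.28, and with it at P3 the median was 0.13. Without P0 replicates 1 and 3 it was 1 (5.12% of all genes), and 1 without P3 replicate 1 (5.58% of all genes). Perp and Itga6 were not called without P3 replicate 1 (-1.15 and -0.55), and Itgb4 neither without it nor without P0 replicate 3 (-0.48 in both).

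Sustentacular cell genes held some of the best separated rises. Sec14l3, a lipid-binding protein, read 175, 264, 301 and 312 CPM at P0 and 1328, 1107 and 1066 CPM at P3, a log2 fold change of 2.15 ± 0.18 (edgeR adjusted p = 4.44e-10). Cyp1a2, a cytochrome P450 oxidase, read 9.54, 17.3, 16.3 and 11.99 CPM at P0 and 135, 106 and 116 CPM at P3, a log2 fold change of 3.11 ± 0.24. Cyp2g1, the olfactory P450, read 529, 975, 660.1 and 649 CPM at P0 and 1954, 1626 and 1962 CPM at P3, and the carbonyl reductase Cbr2 read 939.6, 1111, 1162 and 1473 CPM at P0 and 1941, 2212 and 2062 CPM at P3. In all 4, each P3 library exceeded each P0 library. Of 17 tested genes of this list (of 19), 7 were higher (41.2%, against 8.61% of all genes) and 1 (Adh7) lower (5.88%, against 11.9%). The median log2 fold change was 0.27, and most members were not called. The median was 0.14 without P0 replicate 1 and 0.51 without P0 replicate 2, and Adh7 was not called without any one of P0 replicate 3 and P3 replicates 1 and 3. Keratins 8 and 18, named Krt8 and Krt18, had log2 fold changes of 0.05 and -0.26 and were not called. Without P0 replicates 1 and 3, 3 were higher.

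Enzymes of xenobiotic metabolism rose more often than they fell. Among 37 tested (of 41), 9 were higher (24.3%, against 8.61% of all genes) and 3 lower (8.11%, against 11.9%). The list had a median log2 fold change of 0.19. The median was 0.32 without P0 replicate 3 and 0.11 without P0 replicate 4, and 1 was lower without P0 replicate 3 or P3 replicate 1. Fmo5, a flavin monooxygenase, read 9.22, 11.98, 13.4 and 15.9 CPM at P0 and 28.9, 26.2 and 23.3 CPM at P3. Sult1a1, a sulfotransferase, fell to near one level in all P3 libraries, at 15.4, 28.2, 27.2 and 23.5 CPM at P0 and 7.29, 7.23 and 7.24 CPM at P3. The other falls were Cyp2s1 and Cyp4a12a. In these 7 libraries alone, 4 were higher and 1 lower.

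Secretory genes split evenly. Of 30 tested genes of Bowman's glands and secretion (of 34), 6 were higher (20%, against 8.61% of all genes) and 6 lower (20%, against 11.9%). The median log2 fold change was 0.44 (0.71 without P3 replicate 1 and 0.28 without P3 replicate 3). Scgb1c1, a secretoglobin, read 88.9, 125, 69.2 and 117 CPM at P0 and 348, 335 and 357 CPM at P3, and Bpifb6, of the BPI-fold family of mucosal proteins, read 41.9, 60.1, 46.3 and 113 CPM at P0 and 375, 269.5 and 347 CPM at P3. Both lysozymes fell: Lyz2, also made by macrophages, read 233, 292, 267 and 302 CPM at P0 and 28.02, 60.9 and 85.1 CPM at P3, and Lyz1 read 10.4, 17.1, 16.9 and 13.8 CPM at P0 and 0.09597, 0.9704 and 2.74 CPM at P3. The list rests heavily on P3 replicate 1, where the list summed to 7923 CPM, against 36694 and 46812 CPM in the other P3 libraries and 24745 to 29607 CPM at P0. In that library Bpifb5 stood at 1.92 CPM and the odorant-binding protein Obp2a at 1.15 CPM, while Bpifa1, at 4290.0 CPM, was within the range of the other 6 libraries. These genes were chosen after their values were seen. Without P3 replicate 1, 5 were higher and 4 lower.

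**Figure D3:**
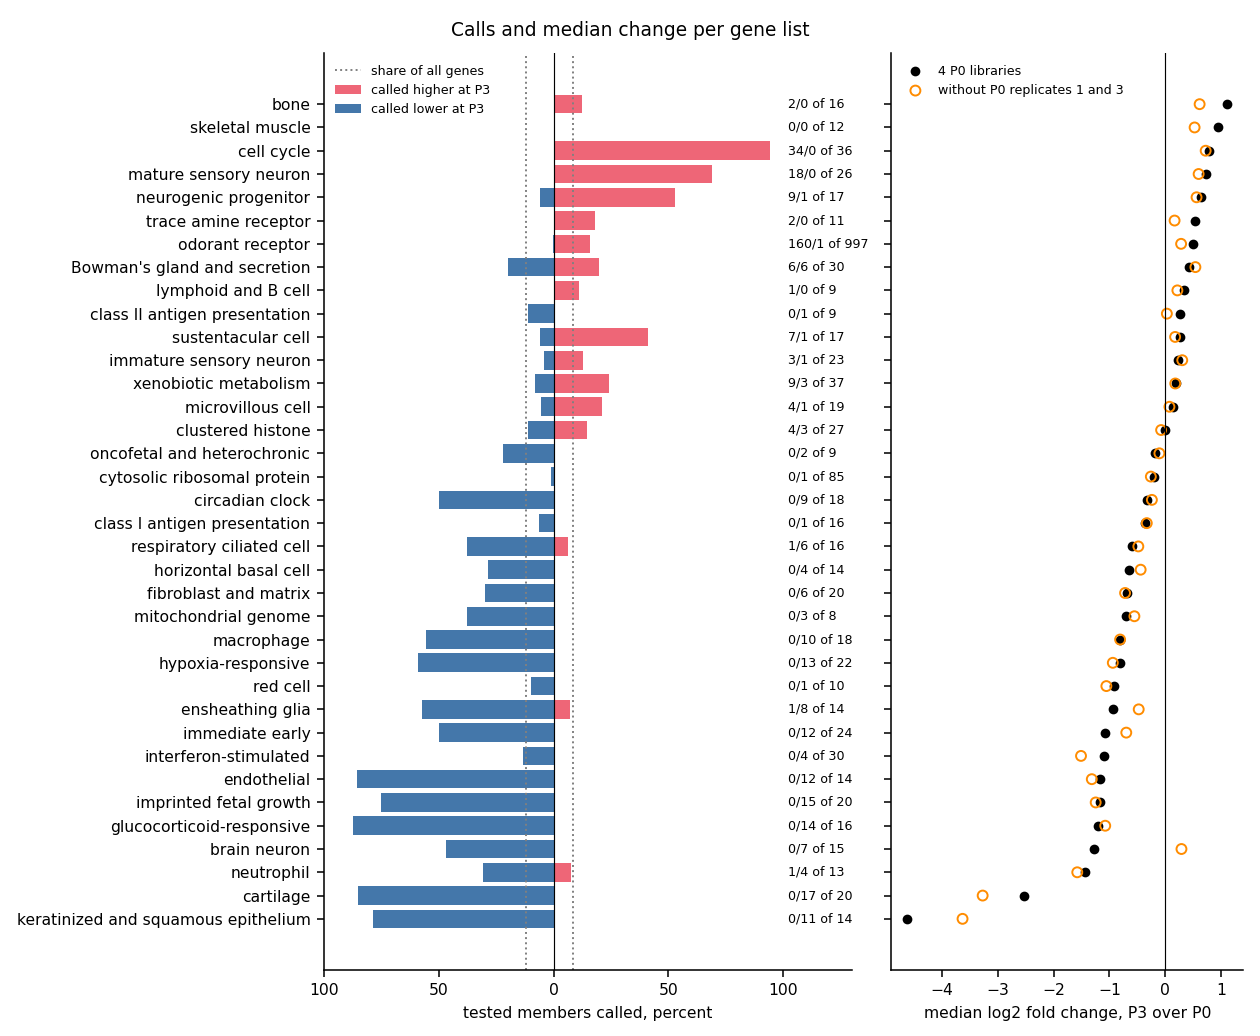
Left, percent of tested members called higher (right of 0) or lower (left of 0) at P3 for each gene list, with counts as higher/lower of tested; dotted lines mark the shares of all genes, 8.61% and 11.9%. Right, the median log2 fold change of each list with all 4 P0 libraries (filled) and without P0 replicates 1 and 3 (open). The cell cycle list has 34 of 36 members higher, and the glucocorticoid list has 14 of 16 lower.

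Microvillous cells, a minor class that includes chemosensory tuft-like cells, had 4 genes higher and 1 lower of 19 tested (of 21). These are 21.1% and 5.26%, against 8.61% and 11.9% of all genes, and the median log2 fold change was 0.15. Without P0 replicate 1, 2 were higher (median 0.09), without P0 replicate 4 it was 6 (median 0.38), and with these 7 libraries alone 2. The median was 0.09 without P0 replicate 3. Pou2f3, the factor that defines tuft cells, read 1.96, 4.403, 5.01 and 4.69 CPM at P0 and 6.81, 6.79 and 7.24 CPM at P3, and it lost its call without P0 replicate 1 (log2 fold change 0.56). Alox5, of leukotriene synthesis, read 0.816, 1.06, 1.78 and 1.56 CPM at P0 and 5.66, 4.15 and 3.79 CPM at P3, while its partner Alox5ap was lower, at 3.02, 2.64, 2.402 and 4.52 CPM at P0 and 0.672, 0.882 and 1.69 CPM at P3. Moxd2, a monooxygenase gene, had 3 counts over the 4 P0 libraries and 91 over the 3 P3 libraries, a 39.0-fold ratio (95% counting interval 12.9 to 192).

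Genes of motile cilia, which mark the neighbouring respiratory epithelium, were lower: 6 of 16 tested (of 18) fell (37.5%, against 11.9% of all genes). Mcidas, a switch for making multiciliated cells, was the sole rise (6.25%, against 8.61%). Mcidas was not called without any one of P0 replicates 1 and 2 or P3 replicates 2 and 3. The median log2 fold change was -0.59. Hydin, of the ciliary central pair, read 144, 142, 226 and 255 CPM at P0 and 52.9, 71.99 and 99.8 CPM at P3, and the dynein Dnah5 read 443, 523, 764 and 743 CPM at P0 and 136, 238 and 282 CPM at P3. Dnah9 and Cfap43 fell by 1.36 and 1.14 on the log2 scale, and none of the 4 overlapped. With P0 replicate 3 at P3 none was called.

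Ensheathing glia, which wrap the olfactory axons, had 8 genes lower (57.1%, against 11.9% of all genes) and 1 (Cryab) higher (7.14%, against 8.61%) of 14. P0 replicate 1 decided most of these calls: without it 3 were lower (9.28% of all genes), and the median log2 fold change went from -0.93 to -0.54. The count lower was 4 without P3 replicate 1 and 5 without P3 replicate 2, and Cryab was not called without any one of P0 replicates 1 and 4 and P3 replicates 1 and 2. Erbb3, a neuregulin receptor, was separated in every library, at 277, 278, 300.2 and 223 CPM at P0 and 170.4, 179 and 172 CPM at P3. Frzb, a secreted Wnt antagonist, read 74.8, 7.66, 6.996 and 27.9 CPM at P0 and 10.2, 4.76 and 9.56 CPM at P3, highest in P0 replicate 1. Without P0 replicate 1 the log2 fold changes of Frzb and Npy were -0.80 and -0.98, and neither was called. Frzb was not called without P3 replicate 2 (-1.58).

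Genes that respond to glucocorticoid hormone fell together. Of 16, 14 were lower (87.5%, against 11.9% of all genes) and 0 higher, with a median log2 fold change of -1.20. In these 7 libraries alone 13 fell (3.38% of all genes), and 12 without P0 replicates 1 and 3. With P0 replicate 3 at P3 the count was 1. Zbtb16, a zinc finger factor, read 44.7, 35.3, 39.9 and 36.1 CPM at P0 and 4.22, 4.06 and 4.57 CPM at P3, a log2 fold change of -3.18 ± 0.28 (edgeR adjusted p = 1.13e-09). Tsc22d3, also called GILZ, read 92.3, 169.6, 159 and 149 CPM at P0 and 31.4, 34.2 and 35.1 CPM at P3. Fkbp5, a co-chaperone of the hormone's receptor, read 160.4, 162, 192 and 83.9 CPM at P0 and 64.9, 63.8 and 48.6 CPM at P3. No P3 library overlapped the P0 libraries in any of the 3. Over later ages the list stayed level, at 6.18 ± 0.22 at P0, 4.88 ± 0.12 at P3, 4.82 ± 0.03 at P14 and 4.94 ± 0.10 at P21, as mean log2(CPM + 1).

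The full binding motif of the hormone's receptor, GAACA and TGTTC with 3 bases between, reads the same on both strands and was found in the promoter of 1 of 15 list members, Sgk1, and in 15 of 27025 genes (0.06%). Sgk1, a kinase that regulates ion transport, read 59.1, 91.5, 109.8 and 93.8 CPM at P0 and 41.9, 45.2 and 43.4 CPM at P3, a log2 fold change of -1.02 ± 0.18. It is named because it was the sole match, after its values were seen. Its promoter (chr10:21993640-21993939, plus strand) has the motif in capitals:
Sgk1: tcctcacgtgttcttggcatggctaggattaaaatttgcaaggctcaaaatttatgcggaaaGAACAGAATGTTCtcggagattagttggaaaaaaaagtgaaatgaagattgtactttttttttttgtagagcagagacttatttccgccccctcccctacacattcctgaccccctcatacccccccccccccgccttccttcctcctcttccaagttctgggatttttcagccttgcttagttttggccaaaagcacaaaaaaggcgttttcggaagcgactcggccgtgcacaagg

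Clock genes overlapped with that list. Of 18, 9 were lower (50%, against 11.9% of all genes) and 0 higher, with a median log2 fold change of -0.32. Per1, which glucocorticoid also induces and which is on both lists, read 155, 124, 148 and 95.8 CPM at P0 and 42.6, 48.3 and 45.3 CPM at P3, a log2 fold change of -1.52 ± 0.17. Nfil3, a repressor of the clock's output, read 33.6, 32.8, 40.4 and 18.7 CPM at P0 and 13.2, 18.2 and 10.7 CPM at P3. Bhlhe40 fell by 0.98 on the log2 scale. Nr1d1 read 37.1, 31.3, 27.8 and 14.7 CPM at P0 and 12, 18 and 15.8 CPM at P3, where P0 replicate 4 lay within the P3 range, and it was not called without P3 replicate 1 (-0.72). The count was 5 without P0 replicate 1, 4 without P3 replicate 1 or 2 and 3 with these 7 libraries alone.

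Immediate early genes, switched on within minutes of a stimulus, were lower in 12 of 24 cases (50%, against 11.9% of all genes) and higher in 0. Their median log2 fold change was -1.08. The count lower was 10 in these 7 libraries alone, and 7 without P0 replicates 1 and 3 or without P3 replicate 1. Fosl2 read 62.3, 74.1, 88.2 and 51.97 CPM at P0 and 18.1, 28.1 and 22.98 CPM at P3. Fosb read 7.99, 2.99, 3.03 and 5.47 CPM at P0 and 0.768, 0.441 and 0.703 CPM at P3. Zfp36, which speeds decay of inflammatory mRNAs, and the nuclear receptor Nr4a2 fell by 1.30 and 1.25 on the log2 scale. In none of the 4 did the groups overlap.

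Hypoxia-responsive genes, the targets of HIF, were lower in 13 of 22 cases (59.1%, against 11.9% of all genes) and higher in none. Their median log2 fold change was -0.81, and all 22 values were below 0. Car9, a carbonic anhydrase and standard hypoxia marker, read 18.4, 15.1, 10.8 and 36.8 CPM at P0 and 1.06, 1.94 and 2.32 CPM at P3, a log2 fold change of -3.49 ± 0.49 (edgeR adjusted p = 5.62e-06). Slc2a1, the glucose transporter GLUT1, read 150.3, 159, 178 and 161 CPM at P0 and 77.9, 82.8 and 88.7 CPM at P3. Pdk1, a pyruvate dehydrogenase kinase, and Ndrg1 fell by 0.76 and 0.86 on the log2 scale. P0 replicate 4 was the highest library for Car9, Pdk1 and Ndrg1, but the list count was 12 without it. It was 6 with these 7 libraries alone and 10 without P0 replicates 1 and 3. Hk2 and Mxi1 read log2 fold changes of -0.07 and -0.01.

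Promoters of this list were searched for the HIF core ACGTG on both strands (CACGT on the other). It was found in 17 of 21 members (81.0%) and in 21.8% of all genes. Among the called members 9 of 12 had it. The promoter of Car9 (chr4:43506776-43507075, plus strand) is shown because Car9 fell most within the list, with the core in capitals just before the start:
Car9: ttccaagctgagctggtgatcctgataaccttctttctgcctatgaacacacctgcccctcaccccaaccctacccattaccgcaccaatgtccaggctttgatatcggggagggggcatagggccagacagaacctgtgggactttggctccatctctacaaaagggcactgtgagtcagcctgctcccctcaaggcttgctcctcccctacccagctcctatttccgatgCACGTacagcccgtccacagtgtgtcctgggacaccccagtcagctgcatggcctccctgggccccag

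Ndufa4l2, a HIF-induced mitochondrial protein outside that list, read 20.1, 10.7, 15.04 and 63.6 CPM at P0 and 0.864, 0.265 and 1.12 CPM at P3. Blood vessel genes were lower as well: 12 of 14 endothelial genes fell (85.7%, against 11.9% of all genes) and 0 rose. Their median log2 fold change was -1.16. Kdr, the VEGF receptor, read 36.95, 26.9, 26.6 and 52.1 CPM at P0 and 9.98, 16.1 and 16.9 CPM at P3, and Pecam1, the junction protein CD31, read 34.5, 42.4, 48.8 and 58.7 CPM at P0 and 18.3, 20.8 and 22.8 CPM at P3. Robo4 and Egfl7 fell by 1.74 and 1.17 on the log2 scale. P0 replicate 4 had the highest endothelial level, and 11 fell without it. Without P3 replicate 1 the count was 6 (5.58% of all genes fell in that fit). Transcripts of the mitochondrial genome were lower for 3 of 8 tested genes (of 13), 37.5% against 11.9% of all genes. All 8 values were below 0, with a median of -0.71. The count lower was 5 without P0 replicate 2 and 1 without P3 replicate 1 or 2. The complex I subunit mt-Nd2 read 2136, 1486, 1698 and 1773 CPM at P0 and 831, 784 and 1005 CPM at P3. For mt-Cytb and mt-Nd4 the fall was 0.73 and 0.68 on the log2 scale, and none of the 3 was called without P0 replicates 1 and 3. Of the 7 libraries, mt-Nd4 lost its call without any one but P0 replicate 2 and P3 replicate 3, at -0.70 to -0.56, and mt-Cytb without P3 replicate 1 or 2 (-0.68 and -0.64).

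Imprinted genes that govern fetal growth fell together. Of 20, 15 were lower (75%, against 11.9% of all genes) and 0 higher. The median log2 fold change was -1.18, and all 20 values were below 0. Without P0 replicates 1 and 3 the count lower was again 15, and with these 7 libraries alone 7. Peg10, a paternally expressed retrotransposon-derived gene, read 19.4, 9.42, 7.52 and 17.8 CPM at P0 and 4.03, 3.88 and 3.23 CPM at P3. Zdbf2 read 11.01, 9.598, 7.83 and 10.1 CPM at P0 and 4.22, 4.76 and 3.37 CPM at P3. Cdkn1c, the growth-restraining cell cycle inhibitor, read 70.5, 66.9, 109 and 144 CPM at P0 and 41.4, 50.9 and 37.9 CPM at P3. Meg3, a maternally expressed long RNA, read 246, 63.8, 67.6 and 71.9 CPM at P0 and 35.1, 27.9 and 32.3 CPM at P3, and P0 replicate 1 stood far above the rest. Its partner Dlk1, counted in the oncofetal list, read 17.3, 23.2, 28.7 and 78.1 CPM at P0 and 4.61, 6.97 and 4.92 CPM at P3. The other call of that list was Igf2bp3, an RNA-binding protein of fetal tissue, at 22.7, 21.3, 25.1 and 20.2 CPM at P0 and 14.9, 15.97 and 13.6 CPM at P3. In that list 2 of 9 tested genes (of 12) fell (22.2%, against 11.9% of all genes) and 0 rose. Its median was -0.18 (-0.11 without P0 replicate 1 and -0.10 without P0 replicate 3). Igf2bp3 was not called without P0 replicate 3, P3 replicate 1 or P3 replicate 3, at -0.59 to -0.53. The imprinted list continued down, from 5.24 ± 0.36 at P0 and 4.32 ± 0.06 at P3 to 3.16 ± 0.06 at P14 and 2.86 ± 0.13 at P21, as mean log2(CPM + 1).

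**Figure D4:**
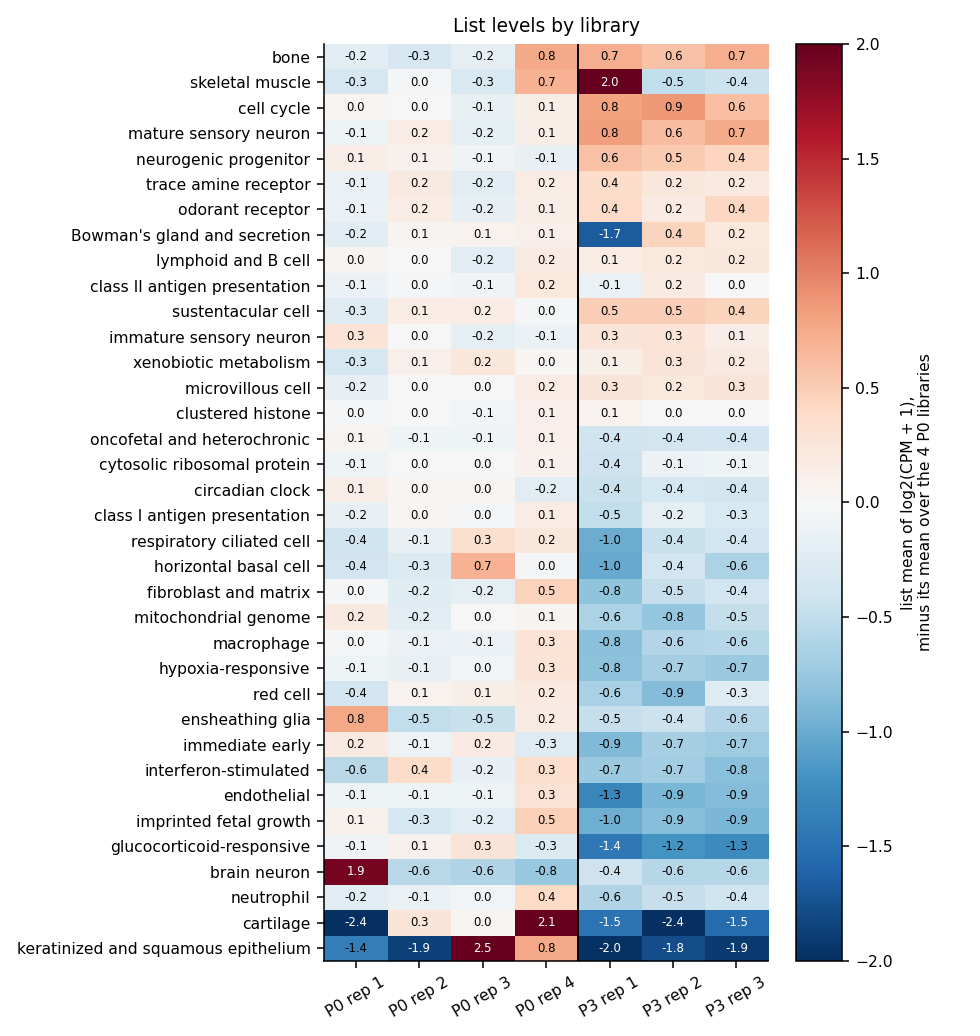
Mean log2(CPM + 1) of each gene list in each library (columns), minus the mean of the 4 P0 libraries, as printed values and in colour, which stops at 2 in either direction. Cell cycle and mature neuron genes are positive in all 3 P3 libraries, while brain neuron genes stand out in P0 replicate 1, keratinized genes in P0 replicate 3 and cartilage genes in P0 replicate 4.

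Macrophage genes were lower. Of 18 macrophage genes, 10 fell (55.6%, against 11.9% of all genes) and 0 rose, with a median log2 fold change of -0.80. Ctss, a lysosomal protease, read 29.8, 29.1, 22.9 and 31.9 CPM at P0 and 9.98, 12.1 and 10.1 CPM at P3. Fcgr3, an Fc receptor, read 9.87, 12.4, 12.2 and 15.9 CPM at P0 and 3.93, 3.26 and 4.08 CPM at P3, and C1qb, of complement, read 22.8, 19.8, 20.3 and 28.2 CPM at P0 and 7.49, 12.97 and 9.63 CPM at P3. Lyve1, a marker of perivascular macrophages and lymphatic vessels, read 5.63, 4.05, 9.82 and 5.82 CPM at P0 and 1.06, 1.24 and 0.984 CPM at P3. In these 4 genes the groups were apart in every library. Neutrophil genes had 4 of 13 (of 16) lower (30.8%, against 11.9% of all genes) and Mmp9 higher (7.69%, against 8.61%). Their median was -1.44 (-0.95 without P0 replicate 4). The granule genes Mmp8, Lcn2 and Retnlg fell by 4.34, 2.20 and 2.31 on the log2 scale, whereas Mmp9, a protease also made by bone-resorbing cells, read 10.8, 7.13, 9.503 and 16.3 CPM at P0 and 28.5, 30.9 and 45.9 CPM at P3. Mmp9 was not called without any one of P0 replicates 1, 2 and 3 or P3 replicate 3, at 1.44 to 1.67.

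The share of antigen presentation genes called was near or below that of all genes. Of 9 tested class II genes (of 11) the accessory chain H2-Ob fell (11.1%, against 11.9% of all genes) and none rose. H2-Ob read 8.08, 10.04, 8.35 and 7.99 CPM at P0 and 0.384, 2.03 and 2.25 CPM at P3. Of 16 class I genes H2-T23 fell (6.25%, against 11.9%) and none rose. H2-T23 read 27.3, 34.8, 36.4 and 36.6 CPM at P0 and 7.01, 19.7 and 18.97 CPM at P3. Of 9 tested lymphoid genes (of 18), Igkc, the antibody kappa chain, was higher (11.1%, against 8.61% of all genes) and none was lower. Igkc read 1.55, 1.497, 0.313 and 2.09 CPM at P0 and 3.36, 3.09 and 2.88 CPM at P3. Igkc was not called without P0 replicate 3 (log2 fold change 0.86) or P3 replicate 1 (1.10), nor H2-T23 without P3 replicate 1 (-0.81).

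Interferon-stimulated genes were below their P0 level in 28 of 30 cases, with a median log2 fold change of -1.09, but 4 were called lower (13.3%, against 11.9% of all genes) and 0 higher. With these 7 libraries alone 12 fell (3.38% of all genes), without P3 replicate 1 the count was 1 (5.58%), and without P3 replicate 3 it was 2. Xaf1 read 4.98, 6.08, 4.28 and 7.39 CPM at P0 and 1.34, 1.41 and 1.26 CPM at P3. Irf9, the DNA-binding subunit of the interferon-activated complex ISGF3, read 39.2, 64.8, 52.5 and 71.8 CPM at P0 and 27.8, 33.2 and 30.1 CPM at P3. Rtp4 and Gbp3 fell by 1.53 and 1.77 on the log2 scale. Without P3 replicate 1 the log2 fold changes of Irf9, Rtp4 and Gbp3 were -0.85, -1.60 and -1.83, and none was called. Rtp4 was not called without P3 replicate 3 (-1.41), nor Gbp3 without P0 replicate 2, P3 replicate 2 or P3 replicate 3, at -1.81 to -1.64. In OIVT;Kir2.1 mice 6 of the 30 were higher and 0 lower, with a median of 0.78. The difference between genotypes was not called for any of these 4 genes (edgeR adjusted p = 0.178, 0.65, 0.376 and 0.478).

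Tissues under and around the epithelium moved in different directions. P0 replicate 4 was the P0 library highest for cartilage, bone and fibroblast genes. Cartilage genes were lower in 17 of 20 cases (85%, against 11.9% of all genes) and higher in 0, with a median of -2.53. But 11 fell without P0 replicate 4, with a median of -1.46, and 3 with these 7 libraries alone (3.38% of all genes). Matn1, a cartilage matrix protein, read 0.653, 85.4, 35.3 and 331 CPM at P0 and 4.703, 0.706 and 4.71 CPM at P3, so P0 replicate 1 was below the P3 range. Col9a3 read 34.4, 164, 156 and 558 CPM at P0 and 36.1, 23.3 and 34.4 CPM at P3. Matn4 fell by 1.81 on the log2 scale. Bone genes had 2 of 16 higher, Sp7 and Alpl, both of bone-forming cells, and 0 lower (12.5% higher, against 8.61% of all genes), with a median of 1.12. Without P0 replicate 4, 5 were higher, with a median of 1.81. Alpl read 10.2, 11.98, 10.1 and 22.2 CPM at P0 and 29.8, 33.8 and 32.9 CPM at P3 and Sp7 read 1.47, 1.14, 1.36 and 2.69 CPM at P0 and 5.85, 4.06 and 7.096 CPM at P3, and neither was called without P0 replicates 1 and 3. Of 20 fibroblast genes, 6 fell (30%, against 11.9% of all genes) and 0 rose, with a median of -0.69. Without P0 replicate 4, 5 fell and 1 rose, with a median of -0.46. Pdgfra read 103, 99.5, 116 and 134 CPM at P0 and 30.2, 43.7 and 43.5 CPM at P3, Fbn2 read 109, 91.8, 97.2 and 124 CPM at P0 and 40.98, 57.5 and 59.2 CPM at P3, and Lox and Pdgfrb fell by 1.12 and 0.97 on the log2 scale. Without P3 replicate 1 the fibroblast count was 1 (5.58% of all genes fell in that fit). Lox, Fbn2 and Pdgfrb, at log2 fold changes of -0.93, -0.85 and -0.69, were then not called.

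Among lists of other cell types, those of keratinized epithelium, brain neurons and skeletal muscle were high in 1 or 2 libraries. Keratinized epithelium genes fell in 11 of 14 tested (of 19), 78.6% against 11.9% of all genes. None was called without P0 replicate 3, 1 without P3 replicate 1 and 4 without P3 replicate 2 or 3. Krt1 read 2.45, 2.38, 207 and 65.9 CPM at P0 and 1.82, 2.91 and 2.178 CPM at P3 and Krt10 read 11.3, 7.22, 267 and 66.1 CPM at P0 and 9.69, 12.2 and 7.87 CPM at P3, so P0 replicates 1 and 2 lay at the P3 level. Without P0 replicate 3 their log2 fold changes were -3.35 and -1.51. Brain neuron genes fell in 7 of 15 (of 21), 46.7% against 11.9% of all genes, and none was called with these 7 libraries alone. Reln read 451, 17.8, 16.9 and 18.8 CPM at P0 and 15.5, 12.3 and 12.9 CPM at P3. Without P0 replicate 1, 2 brain neuron genes were lower and 3 higher, the list's median went from -1.28 to 0.29, and the log2 fold changes of Reln and Grin2b were -0.39 and -0.39. Meis2, at 139, 60.1, 94.8 and 62.9 CPM at P0 and 31.6, 48.7 and 47.4 CPM at P3, was separated in every library, and Gria2 read 67.9, 6.25, 5.33 and 2.78 CPM at P0 and 2.59, 2.12 and 1.41 CPM at P3. Of 10 tested red cell genes (of 20) Hbb-bt fell (10%, against 11.9% of all genes). Hbb-bt read 6.36, 16.2, 13.2 and 16.8 CPM at P0 and 3.45, 2.47 and 7.31 CPM at P3, with no call without P3 replicate 1 or 2 (-1.40 and -1.26). Of 12 skeletal muscle genes (of 18) none was called, though P3 replicate 1 stood above the other 6 libraries in their mean level. Their median log2 fold change was 0.94, and -1.39 without that library.

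Among the 10 largest rises (called, at least 5 CPM at P3, groups apart) were 6 genes not yet described that code for protein, in part enzymes and carriers. Srd5a2, which makes dihydrotestosterone, read 0.734, 1.41, 1.04 and 1.304 CPM at P0 and 13.9, 12.97 and 11.9 CPM at P3, a log2 fold change of 3.52 ± 0.31 (edgeR adjusted p = 1.12e-09). Chil6, a chitinase-like secreted protein, read 10.3, 19.02, 6.37 and 19.3 CPM at P0 and 138, 171 and 119.7 CPM at P3. Gldn, gliomedin, an adhesion protein known from nodes of Ranvier, read 8.89, 8.19, 9.08 and 9.56 CPM at P0 and 83.2, 54.1 and 53.2 CPM at P3 and had the smallest adjusted p of all genes, 2.79e-12. Slc22a20, an organic anion transporter of olfactory mucosa, read 3.100, 4.67, 2.09 and 7.91 CPM at P0 and 29.3, 30.8 and 27.1 CPM at P3. Ces1a, a carboxylesterase, and Anks4b, a scaffold of microvilli, rose by log2 fold changes of 2.77 ± 0.31 and 2.82 ± 0.33. All 6 were higher again at P21 than at P3 in mean level, among them Srd5a2 at 109 ± 2.71 CPM (SD, n = 3).

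Of the other rises, Gm9825 and Tdpx-ps1 are processed pseudogenes and Gm3896 is an antisense transcript. Tdpx-ps1 read 0.245, 1.06, 0.731 and 0.869 CPM at P0 and 6.43, 9.44 and 6.53 CPM at P3, but on log2(TPM + 1) its log2 fold change was -0.60, and reads that fit the parent gene may be split. Gm9825 read 0.408, 2.03, 0.313 and 0.695 CPM at P0 and 10.4, 11.4 and 10.5 CPM at P3, and Gm3896 read 0.326, 0.881, 1.04 and 1.999 CPM at P0 and 9.79, 10.6 and 9.98 CPM at P3, with no strand setting of the counting stated. Rgr, a retinal opsin, and Acsm3, a fatty acid ligase, were among the 10 smallest adjusted p-values, with log2 fold changes of 2.47 ± 0.25 and 2.30 ± 0.24. Igfbp2, which binds insulin-like growth factors, was the other fall in that set beside Zbtb16, at 367, 275, 316 and 312 CPM at P0 and 79.9, 94.4 and 69.6 CPM at P3.

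The largest falls were mainly genes of other tissues. Fcmr, the Fc receptor for IgM, was the most even, at 7.26, 5.72, 6.996 and 9.04 CPM at P0 and 0.576, 0.529 and 0.281 CPM at P3. Ucma, of growth plate cartilage, read 0.571, 17.5, 22.3 and 62.7 CPM at P0 and 0.288, 0 and 0.211 CPM at P3, and Scrg1, of cartilage formation, read 5.95, 5.81, 6.79 and 19.5 CPM at P0 and 1.06, 0.265 and 0.843 CPM at P3. Krt6a had 597 counts over the P0 libraries and 3 over the P3 libraries, a 155-fold ratio (95% counting interval 52.7 to 753), with P0 replicate 3 at 45.1 CPM. Krtdap, of keratinocytes, read 0.245, 0.352, 24.9 and 9.39 CPM at P0 and 0.09597, 0.176 and 0.141 CPM at P3, and Klk10, a secreted protease, read 0.489, 0.881, 16.6 and 7.04 CPM at P0 and 0, 0 and 0.351 CPM at P3. Without P0 replicate 3 neither Krt6a nor Krtdap was called, at log2 fold changes of -5.71 and -4.51. Without P3 replicate 1, Krt6a, Krtdap and Klk10 were not called (-6.88, -5.71 and -4.97), and Krtdap was not called without either other P3 library (-6.06 and -5.89). Islr2, an axon guidance protein, read 213, 1.41, 1.67 and 1.82 CPM at P0 and 0.672, 0.9704 and 0.984 CPM at P3, and the synaptic vesicle protein Synpr read 42.7, 0.704, 0.627 and 0.695 CPM at P0 and 0.576, 0.441 and 0.492 CPM at P3. Both rested on P0 replicate 1, without which their log2 fold changes were -0.88 and -0.43 and neither was called. Vtn, vitronectin, read 50.5, 0.704, 1.36 and 7.39 CPM at P0 and 0.09597, 0.529 and 0.351 CPM at P3, again highest in P0 replicate 1.

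Ribosomal protein genes were seldom called. Of 85 tested cytosolic ribosomal protein genes (of 90), Rpl13a was lower (1.18%, against 11.9% of all genes) and none higher. The median log2 fold change was -0.19 (-0.08 without P3 replicate 1). Rpl13a fell by 0.50 on the log2 scale, and its call was lost without P3 replicate 1 or 3 (-0.45 and -0.40). Of 27 tested clustered histone genes (of 70), 4 were higher (14.8%, against 8.61% of all genes). The 3 that were lower (11.1%) were near the share of all genes (11.9%), and the median log2 fold change was 0. The counts higher and lower were 2 and 1 without P3 replicate 1, and 2 were higher without P0 replicate 2 or 3. Hist2h2be read 207, 222, 174 and 265 CPM at P0 and 378, 316 and 422 CPM at P3, Hist1h1c read 142, 61.6, 115 and 171 CPM at P0 and 67.3, 64.4 and 69.1 CPM at P3 and Hist1h4h fell by 1.70 on the log2 scale, with no call without P3 replicate 1 (-1.42). The pseudogene Hist1h2al had no count at P0 and 82 counts in P3 replicates 1 and 2, at least 35.1-fold higher when 3 counts summed over P0 are taken as the floor, and none in P3 replicate 3. Most replication-linked histone mRNAs lack a poly(A) tail and are poorly captured by such libraries. Kcnj2 was not called, at 59.5, 50.6, 53.3 and 50.1 CPM at P0 and 45.01, 45.3 and 48.8 CPM at P3.

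The same interval was measured in OIVT;Kir2.1 mice, in other libraries. There 3545 genes were called (17.8%), 1565 higher (7.85%) and 1980 lower (9.94%). Of these, 2046 were also called in wild type, 2045 in the same direction, which is 50.2% of the wild-type calls and 57.7% of the Kir2.1 calls. Of the wild-type calls, 95.6% had the same sign in Kir2.1 mice, against 75.0% of all genes tested. The log2 fold changes of Gldn were 2.83 in wild type and 2.78 in Kir2.1, those of Srd5a2 3.52 and 4.11, those of Zbtb16 -3.18 and -3.72, and those of Omp 1.15 and 1.03. Cell cycle genes were higher in 30 of 36 cases and glucocorticoid genes lower in 12 of 16. Among receptors 35 of 997 were higher and 5 lower, with a median of 0.19 against 0.50 in wild type, a difference not tested.

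The test of the difference between genotypes, an interaction term in the same fit, called 1 gene (0.00502%), and 1137 genes had an unadjusted p below 0.05 (5.71%). That gene, the processed pseudogene Gm8276, had few counts. It read 0.163, 1.41, 0.9398 and 6.69 CPM at P0 and 0.288, 0.353 and 0.141 CPM at P3, with P0 replicate 4 above the rest, and was not called in wild type without P0 replicate 4 (log2 fold change -1.68) or P3 replicate 3 (-2.82). In the other genotype it had means of 0.386 ± 0.0819 CPM at P0 and 4.72 ± 1.41 CPM at P3 (SD, n = 4 and n = 3). The difference of log2 fold changes was -6.73 (edgeR adjusted p = 0.0465). DESeq2 called 6 genes, and with the 14 libraries alone edgeR called 0, with 588 genes at an unadjusted p below 0.05.

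**Figure D5:**
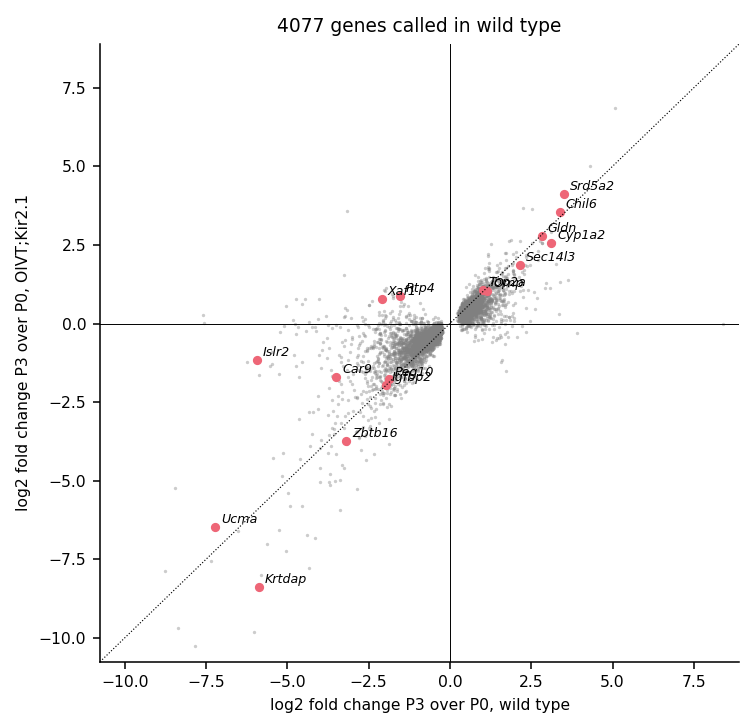
Log2 fold change from P0 to P3 in wild type (x axis) and in OIVT;Kir2.1 (y axis) for the 4077 genes called in wild type, with named genes in red and the dotted line marking equal change. Gldn, Srd5a2 and Zbtb16 lie near that line, while Islr2, high in 1 wild-type P0 library, lies off it.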

How the data were processed

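The members and gene lists were chosen with earlier results of these data known. The submitters' processing notes name STAR 2.6.1c, RSEM, bcl2fastq 2.18 and the build mm10, with no strand setting. The authors deposited a table of whole-number gene counts and another of TPM, each for 54532 genes. In the 7 libraries 4 lines name no gene, with 4.17% to 14.9% of reads unmapped and 8.39% to 13.0% multiply mapped. These lines stayed out of library sizes and tests. Gene positions come from GENCODE M21 (GRCm38), which held 54495 of the identifiers, and promoters are from RefSeq (GRCm38.p6).

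The counts entered edgeR 4.0.16 in R 4.3.3: TMM, filterByExpr, a mean per group, the title prefix as covariate, and 1 quasi-likelihood fit of all 47 libraries, so that the spread is shared. P-values were adjusted by Benjamini-Hochberg over 19927 genes and a gene was called below 0.05. Each standard error is the fold change divided by the root of F. The fit was tested on simulated data. DESeq2 1.42.0 and limma 3.58.1 on log2(TPM + 1) and log2(TPM + 0.1) were alternatives, with other normalizations, filters, samples and each replicate left out. List members under the filter (64) were not tested.

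Named genes are Omp and Kcnj2, the 10 largest rises and the 10 largest falls (called, at least 5 CPM in the higher group, groups not overlapping), the 10 smallest adjusted p-values, up to 4 members per list by adjusted p, and up to 6 genotype-by-age genes; not all are printed, and other genes named were chosen after their values were seen. Among 9 pairs of libraries within a group, counts differed by 7.90 to 30.4 times the sampling variance, so none was a resequencing of another. This check cannot tell whether libraries came from the same animal. Counting intervals are at 95% and cover counting error only.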

Additional observations from a re-analysis of the deposited data

Results flagged for a closer look

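Among the 4 P0 libraries, 172 values (list levels, named genes and the receptor share) were checked for a library far from the other 3, and 19 stood apart by Dixon's criterion. For independent, normal values chance alone gives about 1 in 20. These values are not independent, and the named genes include large falls that rest on a high P0 library. The 19 therefore cannot be set against that rate. P0 replicate 1 was high for the brain neuron list, at a mean log2(CPM + 1) of 5.64, and for Reln (451 CPM), Meg3 (246 CPM), Islr2 (213 CPM), Gria2 (67.9 CPM), Npy (67.1 CPM), Vtn (50.5 CPM), Synpr (42.7 CPM) and Grin2b (27.7 CPM). The same library was low for the list of Bowman's gland and secretion, at 6.21, and had 0 CPM of Moxd2. P0 replicate 3 was high for Cd24a (716 CPM), Perp (307 CPM) and Icam1 (13.4 CPM). P0 replicate 4 was high for the bone list (3.58) and the endothelial list (4.78), and for Alpl (22.2 CPM), Scrg1 (19.5 CPM) and Taar7d (2.87 CPM).

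Between the genotypes, the log2 fold change of Gm8276 from P0 to P3 differed by -6.73 (wild type minus OIVT;Kir2.1, edgeR adjusted p = 0.0465). In wild type 77 of its 104 P0 counts came from replicate 4.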

How the results depend on the processing

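The count of 4077 genes called kept within 1.5 times under the other normalizations, filters and tools, without the prefix term and with the 23 wild-type libraries, at 3077 to 4324. It fell to 1279 with these 7 libraries alone, to 919 with P0 replicate 3 placed at P3 and to 1698 without P0 replicates 1 and 3 (an alternative chosen after seeing the data), and ran from 2101 (without P3 replicate 1) to 4282 (without P0 replicate 4) with 1 library left out. With the replicate number as a block the 7 libraries gave 973, but numbers do not pair the libraries: same-numbered libraries correlated at -0.14 to 0.13 and 0 of 3 P3 libraries correlated best with its own number. The count of 1 for the genotype difference was 0 with the 14 libraries alone, 0 with their replicate block, 0 with upper-quartile factors, 6 with DESeq2, 11 with no filter, and 0 to 10 with 1 library left out. The split turned to more rises with upper-quartile factors, 2062 against 1996, and on TPM, 1816 against 1382 on log2(TPM + 1) and 1833 against 1244 on log2(TPM + 0.1), and was 1979 against 1989 with the 1 CPM filter. Of the 133 called genes named by the rule, 95 kept their call in the 7 libraries alone, 100 without P0 replicates 1 and 3, 62 with P0 replicate 3 at P3, and 107 to 129 with 1 library left out. Signs turned for Tdpx-ps1 on TPM (-0.60 and -0.92) and, with P0 replicate 3 at P3, for Krt6a (1.24), Krtdap (0.89), Klk10 (0.57), Krt10 (1.39) and Krt1 (1.17). The receptor share difference stayed positive in all 9 alternatives run. The cause of these changes was not tested. With 3 and 4 libraries, depth of at most 14035364 counts and few counts per receptor, low genes are measured least well.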
